A study of Mus musculus with 2 samples.

Results

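Naive-like CD8 T cells were followed in a mouse model of cholangiocarcinoma (CCA), a cancer of the bile ducts, in which anti–PD-1 treatment was compared with PBS. They were selected on their unique molecular identifiers (UMIs, a count of captured transcripts). A selected cell had 500 to 5000 detected genes, at most 10% mitochondrial UMIs, a UMI of 2 or more of the 5 T cell receptor complex genes *Cd3d*, *Cd3e*, *Cd3g*, *Trac* and *Trbc2*, and a UMI of *Cd8a* or *Cd8b1*. It had no UMI of *Cd4*, *Foxp3*, *Trdc*, *Cd79a* or *C1qa*, which mark other lineages, at least 2 of the 6 naive genes *Lef1*, *Tcf7*, *Ccr7*, *Dapl1*, *S1pr1* and *Igfbp4*, and none of the 6 activation genes *Pdcd1*, *Gzmb*, *Gzmk*, *Cxcr6*, *Lag3* and *Havcr2*. In total 461 of 31891 cells within the limits on genes and mitochondrial UMIs were selected, 220 of 15531 in the PBS library and 241 of 16360 in the anti–PD-1 library.

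Naive CD8+ T cells recirculate between blood and lymphoid organs until they meet their antigen. The transcription factors TCF-1 (*Tcf7*), LEF1 and KLF2 keep the naive program, CCR7 guides entry into lymph nodes, S1PR1 guides exit, and IL-7 signaling through IL-7Rα (*Il7r*) keeps the cells alive. Contact with antigen induces immediate early genes within minutes to hours, among them the NR4A nuclear receptors and AP-1 factors, and PD-1 restrains the signaling that leads to them. The liver also holds memory CD8 T cells, part of which keep *Tcf7* and in addition carry *Ccl5*, *Ly6c2* or *Eomes*.

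Both libraries came from tumor-bearing livers of shYT mice, in which doxycycline, through a ubiquitous CAG-rtTA3 driver, turns on shRNAs that target *Yap1* and the TAZ gene *Wwtr1*, so that the T cells themselves could express them. CCA had been induced by hydrodynamic tail vein injection (HDTVI) of NICD, an activated Notch fragment, and myr-AKT, a membrane-bound form of AKT. In both groups shRNA expression began on day 25 after HDTVI and tissue was taken on day 33. One group received PBS and the other a PD-1 antibody (clone RMP1-14) on days 26, 29 and 32. No library with the *Renilla* control shRNA was part of the comparison, and the labels give neither the number or sex of the animals nor which shYT line was used. With 1 library a group, no test between the groups was possible, and the 95% intervals below (exact Poisson for a level, exact binomial for a share) cover counting error only.

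The libraries held 121713441 (PBS) and 100807037 (anti–PD-1) UMIs over all barcodes. The selected cells held 732997 and 992539, with a median of 2873.5 UMIs and 1280 genes a cell in the PBS library and 3772 UMIs and 1487 genes in the anti–PD-1 library. The 2 libraries shared 219 cell barcodes. No barcode was selected in both, and 5 PBS and 3 anti–PD-1 selected cells had a barcode that also occurred in the other library. The libraries differed in sex-linked transcripts. Of the selected cells of the PBS library, 81 had *Xist* UMIs alone and 17 had Y-linked UMIs alone, against 0 and 120 in the anti–PD-1 library. The PBS library therefore held cells of both kinds. In values over all selected cells sex and treatment cannot be told apart. Some values in cells with Y-linked UMIs alone are given further below.

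The threshold of 2 naive genes cut through a continuous distribution. Among CD8 T cells without an activation gene, 74 cells of the PBS library had exactly 2 naive genes and 40 had 1, and 44 against 25 in the anti–PD-1 library. Just inside and just outside the threshold, *Il7r* stood at 698 and 556 UMIs scaled to a total of 1e+06 (CPM) with PBS and at 757 and 576 with anti–PD-1. The chemokine gene *Ccl5* stood at 2931 and 2797 CPM with PBS and at 3337 and 2517 with anti–PD-1. At 4 naive genes *Ccl5* was at 574 and 897 CPM, lower than at 2 naive genes in both libraries.

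**Figure D1:**
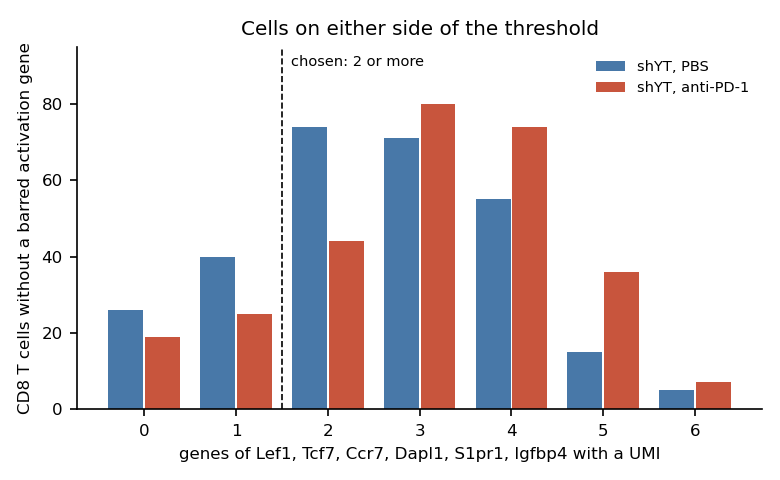
Number of CD8 T cells without an activation gene (vertical axis) by how many of the 6 naive genes had a UMI (horizontal axis), for the PBS and the anti–PD-1 library. Cells to the right of the dashed line were selected, and both distributions run across it, with 40 and 25 cells at 1 gene and 74 and 44 at 2.

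How large a part of the CD8 T cells was naive-like was compared first. A rule on single UMIs selects more cells at greater depth, so every cell was thinned to 1000 UMIs before the rule was applied. Of CD8 T cells so thinned, 86 of 564 (15.2%, 12.4% to 18.5%) were naive-like with PBS and 129 of 754 (17.1%, 14.5% to 19.99%) with anti–PD-1. The difference of 1.86 percentage points had an interval of −2.21 to 5.81 and covers counting error only. Without thinning the shares were 31.3% (27.8% to 34.8%) and 32.1% (28.8% to 35.6%). Over both other denominators the counting interval of the thinned shares lay above 0. Naive-like CD8 T cells made up 2.86% of all thinned T cells with PBS and 3.86% with anti–PD-1, a difference of 1.00 point (0.110 to 1.89), and 0.595% and 0.859% of all thinned cells, a difference of 0.264 points (0.0701 to 0.461). Without thinning, 220 of 4025 T cells with PBS and 241 of 4794 with anti–PD-1 were naive-like, a lower share with anti–PD-1. Over all cells the unthinned numbers were 220 of 15531 and 241 of 16360, a higher share with anti–PD-1. Both denominators kept cells with a *C1qa* or *Cd79a* UMI, which the rule bars from the naive-like cells. With *C1qa* and *Cd79a* not barred and no thinning, 310 PBS and 465 anti–PD-1 cells met the rule. Of the 4025 and 4794 T cells that was a higher share with anti–PD-1. Thinning took the CD8 T cells counted from 704 to 564 with PBS and from 750 to 754 with anti–PD-1. The parts of thinning and of the barred genes in these differences were not tested. With 1 library a group, none of the intervals covers the spread between animals.

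The barred genes removed unequal parts of the 2 libraries. Of T cells with a CD8 UMI, 33.4% had a UMI of *C1qa*, a complement gene of macrophages, with PBS and 46.9% with anti–PD-1, and 2.41% and 11.3% had a UMI of the B cell gene *Cd79a*. Any of the 5 lineage genes was present in 39.3% and 56.8%. The activation genes removed more equal parts, 97 of 317 cells (30.6%) and 112 of 353 (31.7%) that otherwise met the rule. With *C1qa* and *Cd79a* not barred, the thinned shares were 14.7% and 16.3% of CD8 T cells.

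The label was checked with genes that took no part in the rule, against the other CD8 T cells of the same library (484 cells with PBS, 509 with anti–PD-1). *Klf2* stood at 959 CPM in the naive-like cells and 349 in the others with PBS, and at 1320 and 476 with anti–PD-1. *Il7r* was at 905 against 413 CPM and at 757 against 232. The chromatin organizer *Satb1* was at 356 against 138 and at 387 against 100, and the repressor *Bach2*, which holds back effector genes, at 112 against 43.1 and at 95.7 against 37.0. All 4 were thus higher in the naive-like cells of both libraries. The ribosomal protein genes took 30.5% (PBS) and 29.4% (anti–PD-1) of the naive-like cells' UMIs and 20.3% and 18.6% of those of the other CD8 T cells. These values describe the selection, since cells were chosen on genes measured in the same cells.

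Effector and memory genes were lower but not absent. *Ccl5* was at 1309.7 CPM in the naive-like cells and 10741 in the others with PBS, and at 1286 and 9534 with anti–PD-1. The granzyme gene *Gzma* was at 85.9 and 1170.1 CPM with PBS and at 34.3 and 645 with anti–PD-1. The granule gene *Nkg7* was still at 876 and 736 CPM in the naive-like cells. *Ly6c2*, a surface protein of memory CD8 T cells and of monocytes, went the other way and was higher in the naive-like cells, at 1584 against 819 CPM with PBS and 1186 against 712 with anti–PD-1. The level of *Ccl5* shows that the rule also took in cells with memory transcripts, so naive-like stands here for the rule and not for a pure naive population. *Nkg7* was at 1031, 792 and 1105 CPM in cells with 2, 4 and 6 naive genes with PBS, and at 1209.5, 680 and 652 with anti–PD-1. Whether UMIs of *Nkg7* and *Ly6c2* mark memory cells here was not tested. In cells thinned to 1000 UMIs, *Ccl5* was found in 31.5% and 33.2% of naive-like cells with PBS and anti–PD-1, against 8.48% and 22.5% of cells with an *Epcam* UMI and no T cell gene, *Nkg7* in 47.0% and 45.6% against 3.18% and 7.58%, and *Ly6c2* in 40.2% and 44.4% against 4.95% and 9.15%.

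**Figure D2:**
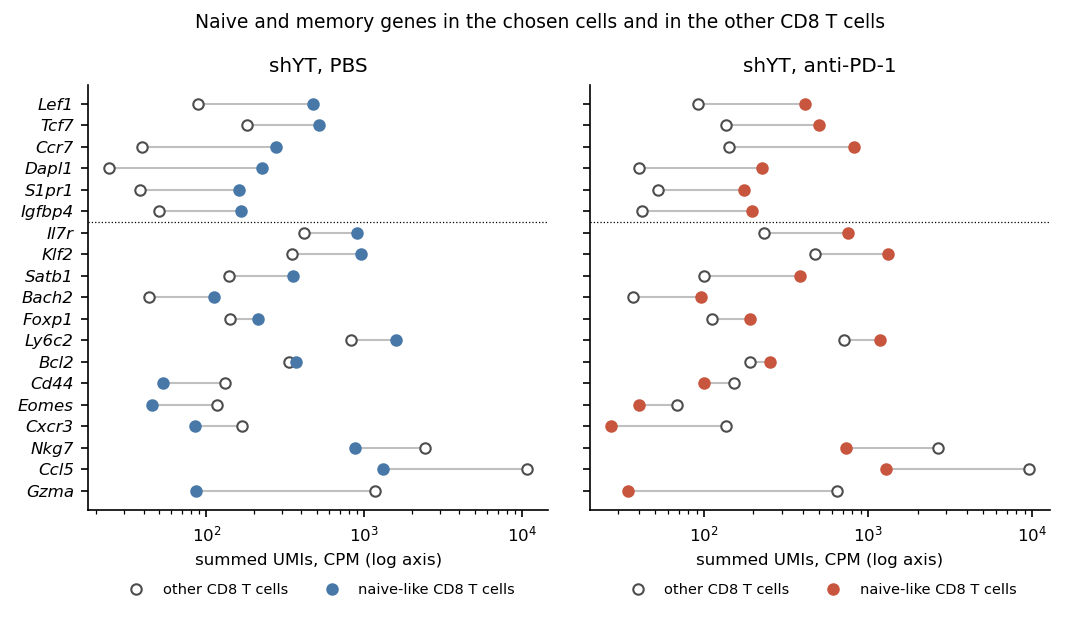
Summed UMIs in CPM (horizontal axis, log scale) of 19 genes in naive-like CD8 T cells (filled) and other CD8 T cells (open), in the PBS library on the left and the anti–PD-1 library on the right. The 6 genes above the dotted line were used by the rule, and among the others *Il7r*, *Klf2*, *Satb1* and *Bach2* were higher in the naive-like cells and *Ccl5* and *Gzma* lower in both libraries.

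Beyond these fixed genes, the genes with the highest ratio over the other CD8 T cells in both libraries included *Gm43698*, *Nsg2*, *Cmah*, *Trnp1*, *Usp28*, *Il6ra*, *Fam241a*, *Tdrp* and *Slc28a2b*. *Cmah*, whose enzyme makes the sialic acid Neu5Gc, was at 240.1 CPM against 46.1 with PBS and at 252 against 64.3 with anti–PD-1. *Nsg2*, a vesicular trafficking gene, was at 120.1 against 27.9 and at 106 against 21.4. *Il6ra*, which encodes the IL-6 receptor subunit, was at 90.0 against 24.3 and at 78.6 against 17.6. Each of these was thus at least 3 times as abundant in the naive-like cells of both libraries. The 10 with the lowest ratio were *Gzma*, *Ccl1*, *Ier5l*, *Osbpl3*, *Ccl5*, *Ifng*, *Prdm1*, *Nrp1*, *Bcl2a1d* and *Rgs16*. *Ifng*, the gene of interferon-γ, was at 6.82 CPM against 70.4 with PBS and at 18.1 against 165 with anti–PD-1, and *Prdm1*, which encodes the effector regulator BLIMP-1, at 2.73 against 41.3 and at 6.05 against 69.3.

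The naive-like cells were split by how many of 7 memory genes (*Cd44*, *Ly6c2*, *Ccl5*, *Nkg7*, *Cxcr3*, *Eomes* and *Gzma*) had a UMI. Memory genes is the name of this list. *Ly6c2* was higher in the naive-like than in the other CD8 T cells, so the classes need not be memory cells. In thinned cells *Cd44* was found in 5.02% and 8.71% of naive-like cells against 13.8% and 18.5% of the *Epcam*-gated cells, and *Gzma* in 0.913% and 4.98% against 1.41% and 5.54%. By share alone, single UMIs of these 2 genes cannot be told from background. The *Epcam*-gated cells can express *Cd44* themselves, so their share of it need not be a background level. With PBS, 30 cells (13.6%) had none, 59 (26.8%) had 1 and 131 (59.5%) had 2 or more. With anti–PD-1 the numbers were 19 (7.88%), 46 (19.1%) and 176 (73.0%). After thinning to 1000 UMIs, 39.7% and 43.2% had 2 or more, so the gap between the libraries was smaller at equal depth. *Lef1* was at 705, 651 and 387 CPM in cells with 0, 1 and 2 or more memory genes with PBS, and at 753, 502 and 373 with anti–PD-1. *Il2rb*, the IL-15 receptor subunit on which memory CD8 T cells depend, was highest in the cells with 2 or more memory genes, at 442 and 448 CPM, against 148 and 117 in those with 1 and 204 and 257 in those with none. *Lef1* is a gene of the rule and the classes differed in depth (medians of 2175, 2538 and 3570 UMIs a cell with PBS and 2555, 3189.5 and 4127 with anti–PD-1), so its values are a description, and the intervals of the classes with 0 and 1 overlapped in both libraries.

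Between the libraries, 7962 genes had a mean of 10 CPM or more in the naive-like cells, and the median log2 ratio of anti–PD-1 over PBS (5 CPM added to each) was −0.09. Of these genes 3337 were higher and 4625 lower with anti–PD-1. In all 301 (3.78%) were at least 2-fold higher with anti–PD-1 and 265 (3.33%) at least 2-fold lower. The intervals of the 2 levels did not overlap for 433 genes (5.44%) that were higher and 361 (4.53%) that were lower. The naive genes of the rule did not move together. *Ccr7* had 202 UMIs with PBS and 813 with anti–PD-1, or 276 (239 to 316) and 819 (764 to 877) CPM, a log2 ratio of 1.55. *Lef1* was at 471 and 412 CPM, *Tcf7* at 517 and 504, *Dapl1* at 225 and 227, *S1pr1* at 161 and 176, and *Igfbp4* at 166 and 195. *Ccr7* alone of the 6 had intervals apart.

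*Ccr7* was used to choose the cells, so its values are a description. In the other CD8 T cells *Ccr7* was also higher with anti–PD-1, at 38.8 CPM with PBS (64 UMIs) and 142 with anti–PD-1 (339 UMIs). A higher measured *Ccr7* level was thus not particular to the naive-like cells. The part of RNA from other cells in the level of the other CD8 T cells was not tested. After thinning to 1000 UMIs, 21.5% (16.2% to 27.5%) of naive-like cells had a *Ccr7* UMI with PBS and 47.7% (41.3% to 54.2%) with anti–PD-1. In cells with an *Epcam* UMI and no T cell gene, tumor and biliary epithelial cells that should lack *Ccr7*, the shares were 1.91% and 8.06%, and in neutrophils (UMIs of *S100a8*, *S100a9*, *Retnlg* and *Csf3r*, no T cell gene) 0.988% and 2.82%. The median depth of these cells was 4268 and 2514 UMIs for the epithelial and 1695 and 2288.5 for the neutrophil gate. By number of memory genes (0, 1, and 2 or more) the log2 ratio of *Ccr7* was 1.59, 1.43 and 1.67. Whether the classes differ was not tested.

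Immediate early factors were higher with anti–PD-1 almost throughout. Of 25 measured genes, 24 were higher (3337 of 7962 over all genes) and 1 was lower, with a median log2 ratio of 1.04. Of these, 13 were at least 2-fold higher (52.0% of the list, against 3.78% of all genes). For 19 the intervals were apart, all of them higher (5.44% of all genes). The NR4A receptors, nuclear receptors that are induced by T cell receptor signals without a known need for a ligand, were among the highest ratios. *Nr4a1* was at 42.3 CPM with PBS and 239.8 with anti–PD-1, *Nr4a2* at 12.3 and 120.9, and *Nr4a3* at 6.82 and 135, log2 ratios of 2.37, 2.87 and 3.57. *Nr4a3* had 5 UMIs with PBS, held by 4 cells, and 134 with anti–PD-1, held by 78 cells (32.4%). Its 3 richest cells held 11.9% of the anti–PD-1 UMIs, so the signal was spread over many cells.

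Because the NR4A genes moved together, the 250 bases before their annotated starts are shown (RefSeq, GRCm38.p6), 5′ to 3′ on the gene's strand. Capitals mark TGACG on either strand (CGTCA where it lies on the opposite strand), the core of the cAMP response element to which CREB and ATF factors bind. The windows are chr15:101266596-101266845 on the plus strand for *Nr4a1*, chr2:57124004-57124253 on the minus strand for *Nr4a2* and chr4:48045055-48045304 on the plus strand for *Nr4a3*.
Nr4a1: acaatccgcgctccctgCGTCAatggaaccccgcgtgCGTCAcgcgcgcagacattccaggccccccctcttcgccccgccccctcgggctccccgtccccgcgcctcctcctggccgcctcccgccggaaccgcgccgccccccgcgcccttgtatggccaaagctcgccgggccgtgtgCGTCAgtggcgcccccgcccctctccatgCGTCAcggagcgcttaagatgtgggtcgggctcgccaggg
Nr4a2: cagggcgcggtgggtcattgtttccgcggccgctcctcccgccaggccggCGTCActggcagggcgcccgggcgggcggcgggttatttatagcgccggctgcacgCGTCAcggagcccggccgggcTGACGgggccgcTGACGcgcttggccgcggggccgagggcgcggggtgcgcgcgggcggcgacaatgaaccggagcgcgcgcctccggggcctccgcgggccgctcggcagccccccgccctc
Nr4a3: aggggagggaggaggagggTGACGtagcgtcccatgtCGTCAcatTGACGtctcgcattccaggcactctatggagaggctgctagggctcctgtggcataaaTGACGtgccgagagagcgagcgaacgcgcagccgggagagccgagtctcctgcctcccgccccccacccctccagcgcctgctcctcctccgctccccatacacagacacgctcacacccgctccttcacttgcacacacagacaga
Each window held 4 copies of the motif. Of 27025 genes in the promoter table, 5347 (19.8%) held TGACG at least 1 time in the same window and 44 (0.163%) held it 4 times or more. Of the 29 immediate early genes 22 were matched to a promoter, and 12 of these (54.5%) held it, against 8 of 19 (42.1%) matched resting genes. Of the NF-κB targets and feedback genes 5 of 14 matched (35.7%) held TGACG. The full element TGACGTCA, which contains TGACG, was found in 1.77% of all windows and in 2 of the 22, *Btg2* and *Dusp1*. The AP-1 site TGANTCA, with N for any base, was also looked for. It was found in 7.82% of all windows and in 1 of the 22. *Fosl2* and *Dusp10*, with log2 ratios of 3.09 and 2.68, held no TGACG. High ratios were thus found with and without the motif.

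AP-1 subunits, which pair to form the transcription factor, differed in size of change. *Fosl2* was at 23.2 CPM with PBS and 234.8 with anti–PD-1. *Junb* was at 971 and 2966 CPM, *Jund* at 446 and 968, *Fos* at 241 and 432 and *Fosb* at 17.7 and 43.3. *Jun* was at 319 and 363 CPM, a log2 ratio of 0.18 with overlapping intervals. *Junb* carried the most transcripts of the AP-1 genes in both libraries (on a scale per UMI, not per length), and *Jun* hardly differed.

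Phosphatase genes of the response differed in their ratios. *Dusp10* and *Dusp5*, phosphatases that switch off MAP kinases, were at 27.3 and 32.7 CPM with PBS and at 202.5 and 209.6 with anti–PD-1, while *Dusp2*, of the same family, had a log2 ratio of 0.29. *Btg2*, an antiproliferative gene, was at 192 and 448 CPM, and *Klf6*, a Krüppel-like factor, at 251 and 519.9. *Egr1* was at 36.8 and 73.6 CPM, a log2 ratio of 0.91. *Myc*, which drives growth of activated T cells, was the single immediate early gene that was lower, at 87.3 and 54.4 CPM with overlapping intervals.

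*Vps37b*, a subunit of the ESCRT-I sorting complex and in no list, had the largest number of UMIs among the 10 highest ratios. It had 104 UMIs with PBS and 1399 with anti–PD-1, or 142 (116 to 172) and 1409.5 (1337 to 1485) CPM, a log2 ratio of 3.27. UMIs came from 68 of the PBS cells (30.9%) and 219 of the anti–PD-1 cells (90.9%). In cells thinned to 1000 UMIs the shares were 14.2% and 66.8%, against 5.30% and 16.8% in *Epcam*-gated cells. Nearly every naive-like cell of the anti–PD-1 library thus had a transcript, and the 3 richest cells held 4.93% of them. The other CD8 T cells went from 14.4% to 45.9% and naive-like CD4 T cells (the same rule with *Cd4* in place of CD8) from 4.81% to 69.5%, so *Vps37b* was also higher there.

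**Figure D3:**
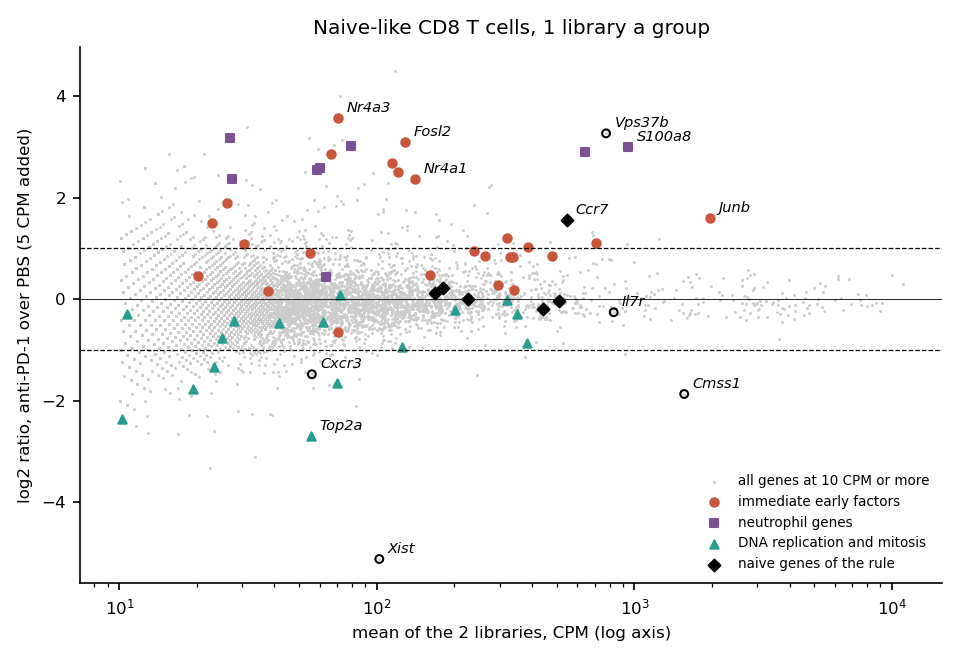
Log2 ratio of anti–PD-1 over PBS (vertical axis, 5 CPM added) against the mean CPM of the 2 libraries (horizontal axis, log scale) for each gene at 10 CPM or more in naive-like CD8 T cells, with 4 gene lists marked and dashed lines at a 2-fold ratio. All but 1 of the immediate early factors lie above 0, 7 of the 8 neutrophil genes lie above the upper dashed line, and of the naive genes *Ccr7* stands apart at 1.55.

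The immediate early UMIs were spread over nearly all naive-like cells. In cells thinned to 1000 UMIs, the immediate early list had a median of 4 UMIs a cell with PBS (10th to 90th percentile 1 to 9) and 9 with anti–PD-1 (5 to 15). No naive-like cell of the anti–PD-1 library was at 0, against 7.31% of those of the PBS library. The NF-κB list went from a median of 1 to 2 UMIs a cell. The resting and quiescence list stood at a median of 9 and 10 UMIs a cell with nearly the same spread, 5 to 15.2 and 5 to 17.

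**Figure D4:**
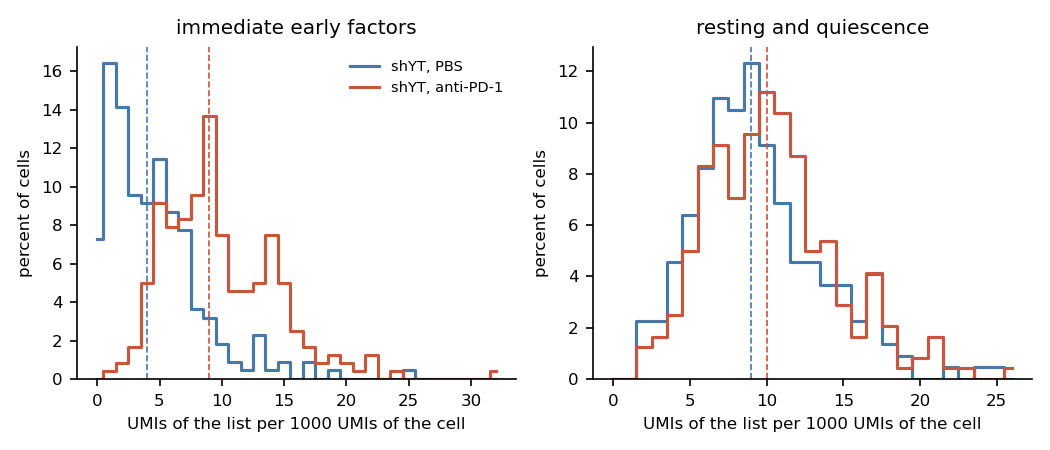
Percent of naive-like CD8 T cells (vertical axis) by the number of UMIs of a list in 1000 UMIs of the cell (horizontal axis), for immediate early factors on the left and resting genes on the right, with dashed lines at the medians. The immediate early medians are 4 and 9 UMIs and the resting medians 9 and 10.

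Free RNA from other cells gives UMIs in cells that do not express a gene. Thinned shares of naive-like cells with anti–PD-1 were set beside those of *Epcam*-gated and neutrophil cells of the same library, which can express part of these genes themselves. *Tnfaip3* was at 36.1% (30.0% to 42.5%) against 18.9% and 20.7%, and *Vps37b* at 66.8% (60.5% to 72.7%) against 16.8% and 23.8%. These were above both. *Nr4a1* was at 18.3% against 34.3% and 52.4%, *Fos* at 36.5% against 53.4% and 77.7%, and *Nfkbia* at 51.0% against 54.2% and 57.9%, so by share alone these genes cannot be told from background. *Nr4a3* was at 10.4% (6.83% to 14.9%) against 8.18% and 5.88%, with an interval that reaches the former.

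Neutrophil transcripts moved with treatment in the same cells. All 8 genes of the neutrophil list were higher with anti–PD-1, 7 of them at least 2-fold (3.78% of all genes), with a median log2 ratio of 2.74 and a sum of 454 CPM with PBS and 3349 with anti–PD-1. *S100a8* was at 206 and 1685 CPM. The list's UMIs were unevenly held, since 35 anti–PD-1 cells with more than 5 of them carried 87.2% of 3324 UMIs and 3 cells carried 1496. At the ratio to *S100a8* seen in that library's neutrophils, the *S100a8* UMIs of the naive-like cells would correspond to 144 UMIs of *Cxcl2* beside 228 counted, and in the same way to 94.97 of the 139 *Il1r2* UMIs, 11.2 of the 1399 *Vps37b* UMIs, 2.70 of the 134 *Nr4a3* UMIs, 18.8 of the 233 *Fosl2* UMIs, 39.2 of the 238 *Nr4a1* UMIs and 1.72 of the 813 *Ccr7* UMIs. After leaving out the 8 PBS and 36 anti–PD-1 cells with more than 5 neutrophil or more than 5 endothelial and fibroblast UMIs, the log2 ratios were 4.03 for *Nr4a3*, 3.32 for *Vps37b*, 3.02 for *Fosl2*, 3.17 for *Cxcl2*, 2.02 for *Il1r2* and 1.52 for *Ccr7*, and the immediate early median was 0.99. Among the 89 PBS and 65 anti–PD-1 cells with 0 or 1 memory gene the neutrophil median was −0.69, and *Vps37b* had a log2 ratio of 2.76. The source of the neutrophil UMIs and their part in these ratios were not tested.

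The 10 highest ratios between the libraries, among genes with intervals apart, were *Cxcl2*, *Il1r2*, *Nr4a3*, *Ccrl2*, *Vps37b*, *Slfn4*, *Cd14*, *Mmp9*, *Il1b* and *Fosl2*. *Cxcl2*, *Il1r2*, *Cd14*, *Mmp9* and *Il1b* are genes of neutrophils and other myeloid cells. *Il1b*, an inflammatory cytokine gene of myeloid cells, had 8 UMIs with PBS and 134 with anti–PD-1, and *Slfn4* had 1 and 53, of which 3 cells held 64.2%. At the neutrophil ratio to *S100a8* with anti–PD-1, 149 UMIs of *Il1b* would be matched beside 134 counted, and 63.3 of *Slfn4* beside 53. For *Cd14* the numbers were 93.3 beside 101, for *Mmp9* 35.8 beside 52 and for *Ccrl2* 41.6 beside 61. Of the 10, 5 were found in at least 25% of the anti–PD-1 cells, namely *Vps37b* (90.9%), *Fosl2* (50.2%), *Nr4a3* (32.4%), *Cxcl2* (31.1%) and *Cd14* (27.4%). In 4 of the 10, 3 cells held at least 40% of the anti–PD-1 UMIs, among them *Cxcl2* with 50.4%.

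The 10 lowest were *Xist*, *Gpihbp1*, *Aqp1*, *Top2a*, *Cenpf*, *Csmd1*, *Bgn*, *Plvap*, *Cdk1* and *Ptprb*, and in 8 of them 3 cells held at least 40% of the PBS UMIs. *Gpihbp1*, *Aqp1*, *Plvap* and *Ptprb* are endothelial genes. *Plvap* had 17 PBS UMIs in 3 cells, *Ptprb* 29 in 3 cells, and *Aqp1* 47 in 12 cells, 80.9% of them in 3. *Gpihbp1* and *Plvap* had 33 and 17 UMIs with PBS and none with anti–PD-1. Their levels were 45.0 (31.0 to 63.2) and 23.2 (13.5 to 37.1) CPM with PBS, and a count of 0 had an upper limit of 3.72 CPM with anti–PD-1. With *C1qa* and *Cd79a* not barred the log2 ratio of *Gpihbp1* was −1.14, against −3.32. For most of the lowest ratios few cells thus held a large part of the PBS UMIs. Over all naive-like cells the endothelial and fibroblast genes summed to 226 CPM with PBS and 112 with anti–PD-1, and 3 PBS cells held 49 of 166 of these UMIs. Without the 8 PBS and 36 anti–PD-1 cells left out above, log2 ratios were −2.15 for *Gpihbp1*, −1.15 for *Aqp1*, −0.66 for *Plvap* and 0.15 for *Ptprb*. They were −2.77 for *Top2a*, −2.98 for *Cenpf*, −2.69 for *Csmd1*, −2.05 for *Bgn* and −2.24 for *Cdk1*. *Xist*, by contrast, was found in 83 PBS cells and had 149 UMIs against 1, as the difference in sex-linked transcripts described above.

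Lower genes that were spread over many cells were looked for after values had been seen. *Cmss1*, whose locus overlaps *Filip1l* so that counting could mix both genes, was at 2452 CPM with PBS (208 cells) and 669 with anti–PD-1 (191 cells). *Serpinb6a*, a protease inhibitor gene, was at 138 and 28.2 CPM in 67 and 25 cells, and *Upk3a* was at 57.3 and 8.06 CPM in 34 and 8 cells. Their log2 ratios were −1.87, −2.10 and −2.25. In the neutrophil gate of the same libraries *Cmss1* was at 2646 and 802 CPM, *Serpinb6a* at 214 and 122, and *Upk3a* at 49.0 and 22.9. All 3 were thus lower with anti–PD-1 there too.

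NF-κB targets and feedback genes were higher in 15 of 17 cases (3337 of 7962 over all genes) and at least 2-fold higher in 6 (3.78% of all genes), with a median log2 ratio of 0.51. The intervals were apart for 6 of the 17, all of them higher (5.44% of all genes). The medians of the genes' lower and upper counting bounds were −0.37 and 1.21. *Tnfaip3*, which encodes the NF-κB inhibitor A20, was at 94.1 CPM with PBS and 451 with anti–PD-1, *Nfkbia*, which encodes IκBα, at 386 and 980.3, and the subunit gene *Rel* at 28.6 and 86.6. The subunit genes *Nfkb1* (108 and 112 CPM) and *Rela* (60.0 and 70.5) and the inhibitor genes *Nfkbib* (47.7 and 56.4) and *Tnip1* (51.8 and 43.3) had overlapping intervals.

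The list of activation surface and cytokine genes, from which the barred genes were absent by rule, had 18 of 20 genes higher (3337 of 7962 over all genes) and 8 at least 2-fold higher (3.78% of all genes), with a median of 0.69. The intervals were apart for 8 of the 20, all of them higher (5.44% of all genes), and the median bounds were −0.35 and 1.90. *Icos*, a costimulatory receptor, was at 24.6 and 99.7 CPM, *Crem*, a cAMP-responsive repressor, at 25.9 and 167, *Nfil3* at 12.3 and 92.7, and the chemokine gene *Ccl4* at 28.6 and 119. *Cd69*, the early activation marker that retains cells in tissue, was at 222 and 313 CPM. *Ifng* stayed at the low levels of 6.82 and 18.1 CPM with overlapping intervals. *Tox*, tied to T cell exhaustion, was at 43.7 and 26.2 CPM, also with overlapping intervals.

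Genes of the resting state moved in both directions. Of 22 genes 13 were higher and 9 lower (3337 and 4625 of 7962 over all genes), with a median of 0.03. The intervals were apart for 6 higher and 4 lower genes (5.44% and 4.53% of all genes). *Cd28*, the main costimulatory receptor, was at 61.4 and 159 CPM, *Btg1*, a quiescence gene that speeds mRNA decay, at 754 and 1735, and *Klf2* at 959 and 1320. *Il7r* was at 905 and 757, the survival gene *Bcl2* at 367 and 254 and *Pik3ip1*, an inhibitor of PI3K, at 145 and 79.6, all with intervals apart. The list thus held genes at higher and at lower levels, with the survival genes among the lower. In cells with Y-linked UMIs alone (17 and 120) *Bcl2* had a log2 ratio of 0.44, and in cells without a neutrophil UMI (139 and 32) *Il7r* had one of 0.08.

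The log2 ratio of *Il7r* differed in size between the classes by number of memory genes. In cells with no memory gene it was at 1442 CPM with PBS and 713 with anti–PD-1, and in those with 1 at 1225 and 633, log2 ratios of −1.01 and −0.95. In cells with 2 or more it was at 741 and 783, a ratio of 0.08. *Vps37b* was higher in all 3 classes, with log2 ratios of 3.29, 2.56 and 3.67. *Junb* differed less in cells without a memory gene (1755 and 3030 CPM, 0.79) than in those with 2 or more (768 and 2988 CPM, 1.95), and its PBS level was the higher in the former. These differences between the classes were not tested.

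Memory and innate-like genes were lower in 18 of 23 cases, beside 4625 of 7962 over all genes, and 3 of them (*Cxcr3*, *S100a4* and *Gzma*) were at least 2-fold lower (13.0%, beside 3.33% of all genes), with a median of −0.25. *Cxcr3*, a chemokine receptor that guides T cells to inflamed tissue, was at 84.6 CPM with PBS and 27.2 with anti–PD-1, *S100a4* at 79.1 and 26.2, *Gzma* at 85.9 and 34.3, and the integrin gene *Itgb1* at 177 and 89.7. Of the 63 *Gzma* UMIs with PBS 95.2% lay in 3 cells, and 6 PBS cells but 22 anti–PD-1 cells had one. In cells thinned to 1000 UMIs its share was 0.913% (0.111% to 3.26%) with PBS and 4.98% (2.60% to 8.54%) with anti–PD-1, the opposite order, so no direction is read for it. Of the *S100a4* UMIs with PBS 43.1% lay in 3 cells. *Cd44*, a receptor for hyaluronan that is high on memory cells, was at 53.2 and 99.7 CPM, the only one of the 5 higher genes with intervals apart. Without the cells with more than 5 neutrophil or more than 5 endothelial and fibroblast UMIs, *Cd44* was at 51.8 and 63.2 CPM, a log2 ratio of 0.26 against 0.85, and its UMIs with anti–PD-1 went from 99 to 51. At the neutrophil ratio to *S100a8* 35.3 of the 99 would be matched, and their part in the difference was not tested. *Ccl5* (1309.7 and 1286 CPM) and *Eomes* (45.0 and 40.3) had overlapping intervals.

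The interferon lists had positive medians with bounds that spanned 0. Of interferon-γ–induced genes 19 of 21 were higher (3337 of 7962 over all genes), with a median of 0.52 (median bounds −0.14 and 1.13). Of the 21, 5 were at least 2-fold higher (3.78% of all genes) and 10 were higher with intervals apart (5.44% of all genes). The GTPase genes *Gbp2* and *Igtp* were at 57.3 and 115 CPM with PBS and at 134 and 259 with anti–PD-1, and *Irf1* was at 166 and 273. Of type I interferon–stimulated genes 14 of 20 were higher (3337 of 7962 over all genes) and 4 at least 2-fold (3.78%), with a median of 0.48 (median bounds −0.33 and 1.57). The intervals were apart for 4 higher and 2 lower genes (5.44% and 4.53% of all genes). The median was 0.016 in the 139 PBS and 32 anti–PD-1 cells without a neutrophil UMI. *Isg15* was at 19.1 and 70.5 CPM and *Ifi27l2a* at 123 and 411, while *Ifi209* was at 165 and 86.6 and *Ifi47* at 258 and 166. MHC class I presentation genes had a median of 0.24, with *H2-D1* at 2352 and 3287 CPM, and no gene at a 2-fold ratio.

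Of 22 genes of T cell receptor signaling 12 were higher and 10 lower (3337 and 4625 of 7962 over all genes), with a median of 0.00. Of these, 2 were higher with intervals apart (5.44% of all genes). *Lck*, the kinase that starts the signal, was at 553 and 574 CPM. *Ptpn22*, a phosphatase that dampens the signal, was the highest at 292 and 488. *Cd8b1* and *Cd3d*, both genes of the rule, were at 1059 and 939.98 CPM with PBS and at 739.5 and 701 with anti–PD-1. Among cytokine receptors *Il21r* was at 101 and 245 CPM and *Il18r1* at 88.7 and 48.4. *Cxcr4*, the receptor for CXCL12, was at 84.6 and 206.5 CPM. Heat shock chaperone genes, which respond to cell stress, were higher in 13 of 14 cases (3337 of 7962 over all genes), with a median of 0.34. For 7 higher genes the intervals were apart (5.44% of all genes), and none was at least 2-fold higher. *Hspa5* was at 544 and 949 CPM and *Hspa8* at 2336 and 3122. The part of the chaperone genes in the immediate early values was not tested.

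DNA replication and mitosis genes were lower in 15 of 16 cases (4625 of 7962 over all genes), 5 at least 2-fold (3.33% of all genes) and 7 with intervals apart (4.53%), with a median of −0.62 (median bounds −1.47 and 0.13). *Top2a* was at 99.6 CPM with PBS and 11.1 with anti–PD-1 and the proliferation marker *Mki67* at 109 and 31.2. Of their PBS UMIs, 61.6% and 52.5% lay in 3 cells. *Top2a* was found in 15 PBS and 9 anti–PD-1 cells. *Mki67* was found in 12 PBS cells (5.45%) and 15 anti–PD-1 cells (6.22%), the opposite order to its level, so no direction is read for it. With PBS, 15 of the naive-like cells (6.82%, 3.87% to 10.996%) had at least 4 of 14 cycling genes and held 61.7% of the UMIs of those genes, and with anti–PD-1 12 cells (4.98%, 2.60% to 8.54%) held 27.1%. The intervals of the 2 shares overlapped. In the cells with 0 or 1 memory gene *Mki67* had a ratio of 1.06 and the list a median of 0.38. Among the other CD8 T cells 9.30% and 21.8% had at least 4 cycling genes.

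The same sums in other cells of the 2 libraries show how far these values were particular to the naive-like CD8 T cells. The comparisons share both libraries, so their values are set side by side without a test. The median over all genes measured was −0.09 in naive-like CD8 T cells, −0.10 in the other CD8 T cells, −0.17 in naive-like CD4 T cells and 0.07 in B cells. In the same order the immediate early median was 1.04 in naive-like CD8 T cells, 0.71 in the other CD8 T cells, 1.10 in naive-like CD4 T cells and 1.24 in B cells. The NF-κB median was 0.51, 0.46, 0.58 and 0.53, and the interferon-γ median 0.52, 0.29, 0.69 and 0.85. The medians of these lists were thus positive in all 4 groups of cells, and nothing here sets the naive-like CD8 T cells apart for them. For DNA replication and mitosis the medians were −0.62, 0.85, −0.60 and 0.49, so both naive-like groups had negative medians and the other 2 positive ones.

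**Figure D5:**
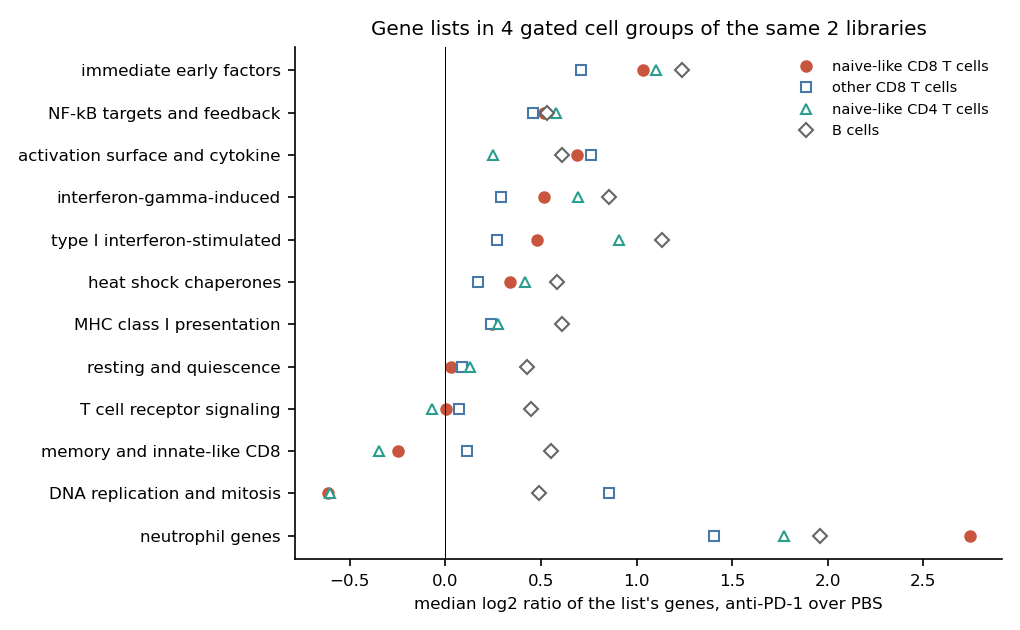
Median log2 ratio of anti–PD-1 over PBS (horizontal axis) over the measured genes of 12 lists (vertical axis) in naive-like CD8 T cells (filled), other CD8 T cells, naive-like CD4 T cells and B cells of the same 2 libraries. The immediate early medians lie between 0.71 and 1.24 in all 4 groups, and those of DNA replication and mitosis at −0.62 and −0.60 in the naive-like groups and 0.85 and 0.49 in the others.

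Transcripts of other cell types in the naive-like cells also moved between the libraries. The 10 B and plasma cell genes measured had 8 higher (3337 of 7962 over all genes), and the whole list summed to 1449 CPM with PBS and 2374 with anti–PD-1. Its largest part was *Cd74* at 449 and 972 CPM, and the B cell gene *Ms4a1* was at 0 in the PBS cells. Tumor and biliary genes were lower in 7 of 7 cases (4625 of 7962 over all genes), 3 with intervals apart (4.53% of all genes). They summed to 1965 and 959 CPM, led by *Spp1* at 1246 and 587. Of the macrophage and monocyte genes 10 of 13 were higher (3337 of 7962 over all genes), 4 at least 2-fold (3.78% of all genes), with a median log2 ratio of 0.68. In this list 5 higher and 2 lower genes had intervals apart (5.44% and 4.53% of all genes). *Clec4f*, a Kupffer cell gene, was at 24.6 and 93.7 CPM and the complement gene *C1qb* at 134 and 263. The sum of that list, 3685 and 3474 CPM, had *Ly6c2* as its largest part. Pancreatic acinar genes summed to 4.09 CPM with PBS and 87.7 with anti–PD-1. The part of these transcripts in the ratios above was not tested.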

How the data were processed

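Unnormalized UMI counts, deposited by the authors as gene by cell matrices, were used for 2 GEXSCOPE V2 libraries. The submitters' notes name mm10 and Seurat 4.3, and neither the counting software's version nor its use of strand is given in the sources used here. All 32589 listed genes were read, and a symbol listed more than once was read as its first entry. A figure legend of the study gives n = 4 a group for its T cell maps, and the labels tie no cell to an animal. Members and gene lists were chosen with earlier results of these data known. UMIs of the members were summed per library and scaled to CPM, and log2 ratios used a pseudocount of 5 CPM and genes at a mean of 10 CPM or more. Levels have exact Poisson and shares exact Clopper-Pearson 95% intervals, and the interval of a difference of shares is Newcombe's. Thinning drew 1000 UMIs a cell without replacement. Named were the 10 highest and 10 lowest ratios with intervals apart, the 10 highest and lowest against other CD8 T cells in both libraries, the genes of the rule, and list members. The code was tested on simulated data. Scrublet (scanpy 1.11.5) marked 0 cells and so did not work here, and the 5% of cells with the highest scores were left out instead as an alternative. Of the listed genes, *Mx1*, *H2afz*, *Tcrg-C1* and *Tcrg-C2* were not matched. Python 3.11.15, numpy 2.4.6, scipy 1.17.1, pandas 2.3.3 and matplotlib 3.10.9 were used. Promoters were read from a RefSeq table of GRCm38.p6. Values of some genes that the rule for named genes covers are not reported here.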

Additional observations from a re-analysis of the deposited data

Results flagged for a closer look

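The median log2 ratio of DNA replication and mitosis genes was −0.62 in naive-like CD8 T cells and 0.85 in the other CD8 T cells of the same 2 libraries, where 15 of 16 measured genes were lower (4625 of 7962 over all genes) and 18 of 18 higher (3354 of 8535 over all genes) with anti–PD-1. In the naive-like cells the median counting bounds were −1.47 and 0.13, and the median was 0.38 in cells with 0 or 1 memory gene. Of the PBS UMIs of *Top2a* and *Mki67* in the naive-like cells, 61.6% and 52.5% lay in 3 cells. An *Mki67* UMI was found in 12 PBS and 15 anti–PD-1 cells. The 2 medians had opposite signs, and with 1 library a group the difference was not tested.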

How the results depend on the processing

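No paired analysis was possible because each group had 1 library. The immediate early median lay between 0.85 and 1.73 under 22 alternative settings, and the log2 ratio of *Vps37b* between 2.76 and 3.76, of *Ccr7* between 1.23 and 3.15 and of *Nr4a1* between 1.96 and 2.59. The number of genes at least 2-fold higher (301) and lower (265) with anti–PD-1 varied between settings. Settings of the pseudocount or of the CPM filter changed that alone, in the same 220 and 241 cells. The other settings listed next changed the cells or their UMIs, several things at once, and the causes there were not tested. The numbers of higher and lower genes were 1080 and 1880 in cells with Y-linked UMIs alone (17 and 120 cells), 807 and 1171 without cells with a neutrophil UMI (139 and 32 cells), 713 and 967 in cells with 0 or 1 memory gene (89 and 65), 696 and 851 with cells thinned to 1000 UMIs, 104 and 31 at a mean of 50 CPM or more, and 461 and 564 without a filter. Higher and lower genes numbered 352 and 403 with 3 or more naive genes (146 and 197 cells) and 320 and 463 with both *Cd8a* and *Cd8b1* (136 and 155). They numbered 396 and 477 with a pseudocount of 1 CPM, and 207 and 144 with 10 CPM. At 5 CPM or more they were 377 and 435, and with *C1qa* and *Cd79a* not barred 232 and 153. The difference in the naive-like share was −3.79 percentage points in cells with Y-linked UMIs alone and −1.51 with both *Cd8a* and *Cd8b1* required. The direction turned for *Bcl2* (0.44, Y-linked cells), *Il7r* (0.080, no neutrophil UMI), *Nkg7* (0.017 with activation genes allowed, 0.079 thinned), *Top2a* (0.71) and *Mki67* (0.87) with 0 or 1 cycling gene, a setting that picks cells by these genes and so says nothing of them, and, with 0 or 1 memory gene, *Mki67* (1.06), *Ly6c2* (0.031, itself one of the memory genes), *S100a8* (−0.68), the neutrophil list (−0.69) and the DNA replication and mitosis list (0.38), and the causes were not tested. Settings on neutrophil UMIs, cycling and memory genes, doublet scores, and *C1qa* and *Cd79a* were chosen after seeing the data. A rule without any cell holding 2 UMIs of other types' markers left no cell and could not be run. In cells with Y-linked UMIs alone (17 and 120) the immediate early median was 1.73 and the log2 ratios of *Vps37b* and *Ccr7* were 3.76 and 3.15, the highest of the 22 settings. That of *Crem* was 1.56, the lowest of the 22. The part of sex in these values was not tested. With 1 library a group, animals and treatment cannot be told apart, nor sex and treatment over all selected cells.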
